A study of Mus musculus with 8 samples.

Results

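The let-7 and miR-98 family of microRNAs (miRNAs) was examined in small RNA libraries of mouse sperm. Its members were taken by name, as mmu-let-7a, b, c, d, e, f, g and i and mmu-mir-98, from every sequence annotated to these names alone, with gene copies of one name joined and reads that fit several members kept apart as shared. These were 9 of 761 miRNA names with reads, and 383 of the 12695 distinct miRNA sequences among 5724730 distinct sequences in all. The study asked whether activity of AgRP neurons, hunger neurons of the hypothalamus, alters the small RNA that sperm carry. Male mice had an adeno-associated virus with a Cre-dependent excitatory receptor, hM3Dq, injected on both sides of the arcuate nucleus at 8 weeks of age. The designer drug CNO (clozapine-N-oxide, 1 mg/kg) was given 3 weeks later, with food taken away 1 h beforehand, and sperm were taken from the caudae epididymides 4 h after the injection. The 4 activated mice were Agrp Cre/+, in which Cre in AgRP neurons turns the receptor on. The 4 control mice were Agrp +/+ and received the same virus and the same CNO but carried no Cre. Each library came from 1 mouse, and sperm were released from cut caudae and washed in buffer, with no step to remove other cells described. The authors assessed sperm purity by qPCR of marker mRNAs, which was not analysed here. Total reads were 14903635, 17489698, 14757501 and 9409491 in activated replicates 1 to 4 and 12421068, 23123740, 9297271 and 14348060 in control replicates 1 to 4. Levels are given as RPM, the reads scaled to the total of the library.

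Let-7 miRNAs are cut from hairpin precursors by Drosha and Dicer, loaded onto Argonaute proteins, and pair through their seed with sites in target mRNAs, whose translation and stability they lower. LIN28 proteins bind let-7 precursors in stem and germ cells and block their maturation, in part by having uridines added to them, so that mature let-7 accumulates as cells differentiate. Mature let-7 is abundant in differentiated somatic tissues, the epididymis among them, and is also found in sperm.

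The mature sequences are shown because the whole family is defined by its seed and because several members differ so little that the reads must be told apart by single bases. They were taken from RefSeq (GRCm38.p6) and are written 5′ to 3′, with the seed, bases 2 to 8, in capitals. The 9 members carry one seed, GAGGUAG.
mmu-let-7a: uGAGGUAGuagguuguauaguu
mmu-let-7c: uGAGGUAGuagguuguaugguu
mmu-let-7b: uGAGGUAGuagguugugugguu
mmu-let-7e: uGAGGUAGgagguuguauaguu
mmu-let-7f: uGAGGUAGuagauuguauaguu
mmu-let-7d: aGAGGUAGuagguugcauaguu
mmu-mir-98: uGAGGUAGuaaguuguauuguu
mmu-let-7g: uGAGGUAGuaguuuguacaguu
mmu-let-7i: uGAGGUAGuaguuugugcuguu
Counting positions from 1 at the 5′ end, let-7c differs from let-7a by A19G, let-7e by U9G and let-7f by G12A. Let-7b differs from let-7c by A17G, and let-7d from let-7a by U1A and U16C. All of these lie outside the seed. In the reference, 11 mature miRNAs share this seed, of 1679 names. The 2 outside the family, mmu-let-7k and mmu-miR-1961, had 0 reads in all 8 libraries.

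Because 1 wrong base turns one member into another, the reads of each neighbour were set beside the same base change elsewhere in the sequence. The full-length let-7a sequence had 550055 reads over the 8 libraries and the let-7c sequence, A19G from it, had 120833 reads. The same A-to-G change at 4 other positions of let-7a gave at most 64 reads. For let-7e, U9G from let-7a, the 7309 reads stood against at most 35 reads of a U-to-G change elsewhere. The 158637 reads of let-7f, G12A from let-7a, stood against at most 22. Reading the least abundant way round, the let-7b sequence had 8927 reads, and A-to-G changes of let-7c at other positions gave at most 23 reads. Reads that fit several members were few: those shared by let-7a and let-7c, 3841 reads of the 5p and 474 of the 3p arm, averaged 37.0 RPM, those shared by let-7a, let-7b and let-7c 1.09 RPM, and those shared by let-7g and let-7i 0.382 RPM.

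The 9 members are made from 12 hairpin genes (GRCm38.p6, host genes from GENCODE vM21), several of them in clusters. On the minus strand of chromosome 13, Mirlet7a-1 (chr13:48538179-48538272), Mirlet7f-1 (chr13:48537829-48537917) and Mirlet7d (chr13:48536012-48536114) lie within exons of the lincRNA 6720427I07Rik, with 262 bp between the first pair. Mirlet7c-2 (chr15:85706603-85706697) and Mirlet7b (chr15:85707319-85707403) lie 622 bp apart in an exon of the non-coding RNA Lncppara. Mirlet7c-1 (chr16:77599657-77599750) lies in an intron of Mir99ahg, 657 bp from Mir99a. Mirlet7e (chr17:17830352-17830444) lies in an intron of the protein-coding gene Spaca6, 99 bp from Mir99b and 368 bp from Mir125a. Mirlet7a-2 (chr9:41536716-41536811) is intronic in the lincRNA Gm49317, 5212 bp from Mir100. Mirlet7g (chr9:106178840-106178927) lies in an intron of Wdr82. Mirlet7i (chr10:122985640-122985724) lies in an exon of the transcribed pseudogene D630033A02Rik. Mirlet7f-2 (chrX:151912346-151912428) and Mir98 (chrX:151913214-151913321) lie 786 bp apart in an intron of Huwe1. Let-7a, let-7c and let-7f are each made from 2 genes whose mature reads are identical, so their reads cannot be assigned to one gene.

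Some libraries stood apart before any group was compared. Control replicate 4 had miRNA in 47.1% of its reads, while the other 7 libraries ranged from 17.8% to 37.8%. Reads of mitochondrial rRNA were 0.123% to 0.182% of the total in activated replicates 1 and 4 and control replicates 2 and 4, and 1.09% to 1.89% in activated replicates 2 and 3 and control replicates 1 and 3. Each group therefore held 2 libraries of either kind. Markers of sperm and of cells that could accompany them were read in every library. The 5 sperm and male germ cell miRNAs, led by mmu-mir-34b, summed to 22585, 16323, 15812 and 21292 RPM in activated replicates 1 to 4 and to 15506, 19068, 13349 and 15143 RPM in control replicates 1 to 4. These defining markers were present in all 8 libraries, and control replicate 4 lay among the others. Of the 5, miR-34b ran from 6686 to 9792 RPM over the libraries. The others varied more in fold, such as miR-34c from 4350 to 13648 RPM and miR-449a from 361 to 2239 RPM.

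Epithelial miRNAs set control replicate 4 apart. All 7 of 7 were detected, led by mmu-mir-200c, with sums of 3476, 1166, 1085 and 1196 RPM in the activated and 1364, 1825, 2733 and 19420 RPM in the control libraries. Control replicate 4 was 9.84-fold above the mean of the other controls, and activated replicate 1 was the highest activated library. The 4 smooth muscle miRNAs, all detected and led by mmu-mir-143, summed to 392, 199, 138 and 292 RPM in the activated and 200.1, 362, 244 and 35290.0 RPM in the control libraries. That last value was 131-fold above the mean of the other 3 controls. Erythrocyte miRNAs were detected for 4 of 5 names, with no reads under the bare name mmu-mir-486, and mmu-mir-451a led them. Of these mmu-mir-486b was at 0 in activated replicates 2 to 4 and control replicate 3, and mmu-mir-486a in activated replicate 2, while reads shared by both names were present in all 8 libraries. Their sums were 298, 83.5, 113 and 84.1 RPM in the activated and 235, 532, 976 and 659 RPM in the control libraries. Leukocyte miRNAs were detected for 5 of 6 names, with no reads under the bare name mmu-mir-142, and mmu-mir-142a led them. Their sums were 979, 432, 706 and 623 RPM in the activated and 410, 539, 394 and 879 RPM in the control libraries. What these cells contributed to the let-7 levels was not tested, and in bulk samples fewer cells of a type and less RNA per cell cannot be told apart.

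Let-7 family reads were plentiful in every library. The family summed to 20905, 11989, 10307 and 16021 RPM in activated replicates 1 to 4 and to 10170.0, 14434, 9530.2 and 39892 RPM in control replicates 1 to 4. Control replicate 4 was the highest of the 8 libraries, 1.91-fold above activated replicate 1, the next highest, and control replicate 3 was the lowest. The groups overlapped. The mean was 14806 ± 4720.3 RPM in activated and 18507 ± 14422 RPM in control mice (SD, n = 4 each), a ratio of 0.80. Without control replicate 4 the control mean was 11378 ± 2666 RPM (SD, n = 3) and the ratio turned to 1.30, so the direction rested on 1 library. As a share of miRNA reads the family took 5.52%, 4.15%, 4.49% and 4.28% in the activated and 3.92%, 4.35%, 5.34% and 8.47% in the control libraries. On that scale the ratio was 0.835 with control replicate 4 and 1.02 without it. Among the 4 libraries low in mitochondrial rRNA, which include control replicate 4, the ratio of family RPM was 0.680, and among the 4 high in it the ratio was 1.13. The mean of the low set, control replicate 4 included, was 22813 RPM and that of the high set 10499 RPM. As a share of miRNA reads the sets overlapped, at 4.28% to 8.47% in the low and 3.92% to 5.34% in the high set.

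The leading member was let-7a, made on chromosomes 13 and 9. Let-7a stood at 10542, 7142, 5911 and 9908 RPM in activated replicates 1 to 4 and at 6217, 8273, 4991 and 13646 RPM in control replicates 1 to 4. The highest was control replicate 4 and the lowest control replicate 3, and the remaining libraries of both groups were interleaved. Let-7f, made on chromosome 13 and on the X chromosome, was at 2708, 921, 999 and 1224 RPM in the activated and 682, 1279, 918 and 7165 RPM in the control libraries. Here activated replicate 1 also rose above its group, and control replicate 4 was 7.47-fold above the mean of the other controls. Let-7d, made on chromosome 13 alone, read 1279.9, 846, 904 and 992 RPM in the activated and 811, 906, 756 and 2896 RPM in the control libraries. Leaving out control replicate 4, it was the steadiest of these, with a control mean of 824 ± 75.9 RPM (SD, n = 3) against 1006 ± 193 RPM in activated mice (SD, n = 4).

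Products of the chromosome 15, 16 and 17 clusters were low in most libraries and high in control replicate 4. Let-7c, made on chromosomes 15 and 16, was at 705, 349, 442 and 300.0 RPM in the activated and at 437, 396, 1058 and 8466 RPM in the control libraries. Control replicate 4 exceeded the next highest library, control replicate 3, by 8.01-fold. Let-7b, beside let-7c on chromosome 15, was at 76.8, 45.1, 67.9 and 36.1 RPM in the activated and 58.1, 43.6, 174 and 823 RPM in the control libraries. Again control replicates 4 and 3 were the highest, and control replicate 2 lay below 3 of the 4 activated libraries. Let-7e, from the chromosome 17 cluster, was at 36.4, 16.8, 21.1 and 11.6 RPM in the activated and 23.0, 16.9, 44.2 and 613 RPM in the control libraries. Its level in control replicate 4 was 13.9-fold that of the next highest library, control replicate 3.

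The remaining members, let-7g, let-7i and mir-98, each come from 1 gene. Let-7g, from the Wdr82 intron, was the second most abundant member by mean level, though let-7c and let-7f exceeded it in control replicate 4. Let-7g stood at 4953, 2462, 1768 and 3287 RPM in the activated and 1783, 3225, 1422 and 5349 RPM in the control libraries. Control replicate 4 lay only 1.08-fold above activated replicate 1. Let-7i was at 488, 170.2, 159 and 222 RPM in the activated and 126, 246, 127 and 663 RPM in the control libraries. Mir-98, from the Huwe1 intron, was at 59.1, 12.2, 22.2 and 12.6 RPM in the activated and 10.8, 21.02, 19.04 and 153 RPM in the control libraries. For both, activated replicate 1 was the highest activated and control replicate 4 the highest control library. In RPM over all reads, control replicate 4 held the highest value of all 9 members and activated replicate 1 the highest activated value of all 9. Single members were not scaled to miRNA reads, of which control replicate 4 had the highest share. The RPM of the groups overlapped in 9 of 9. Across all RNA species tested, groups did not overlap in 13 of 586 (2.22%).

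**Figure D1:**
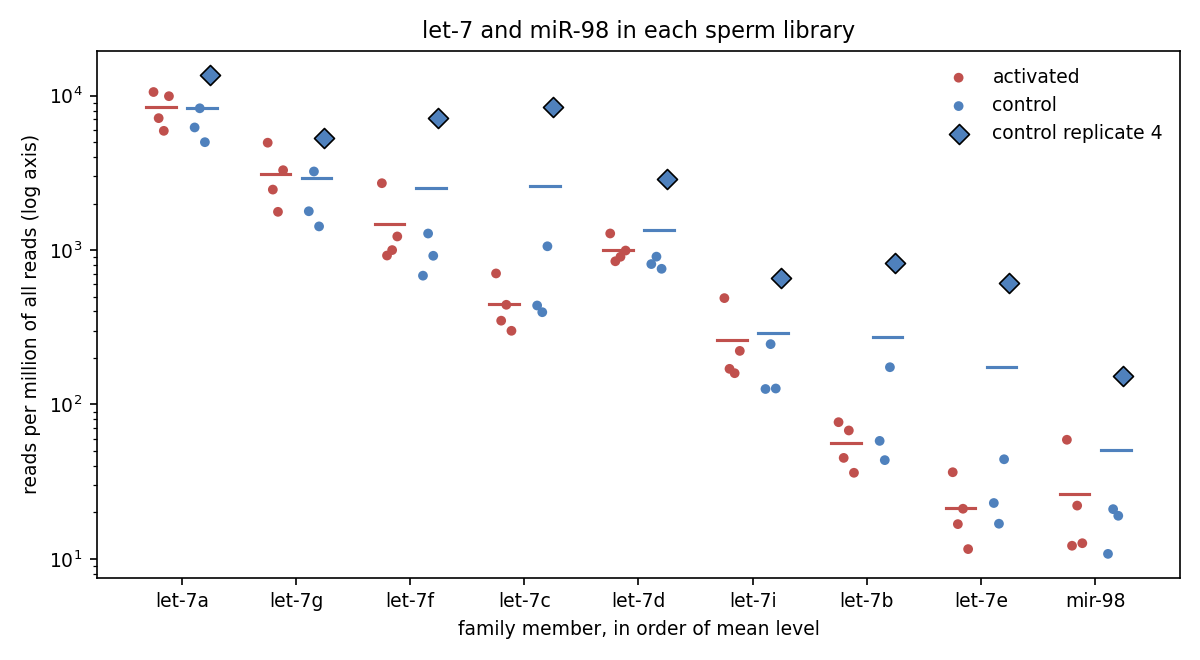
Level of each family member in each of the 8 sperm libraries, in RPM on a log axis, with 1 point per library and a line at the mean of each group. Control replicate 4, drawn as a diamond, is the highest point for all 9 members, from 153 RPM for mir-98 to 13646 RPM for let-7a.

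In order of mean level over the 8 libraries the members ran let-7a (8329 RPM), let-7g (3031), let-7f (1987), let-7c (1519), let-7d (1174), let-7i (275), let-7b (166), let-7e (97.9) and mir-98 (38.7). Their means without control replicate 4 were 7569, 2700.1, 1247, 527, 928, 219.9, 71.7, 24.3 and 22.4 RPM, which put let-7d above let-7c. The mature forms are all 22 nt long, so the levels compare without a length correction. Most neighbours in this order differed by more than the spread of their log2 difference over the libraries. Let-7a exceeded let-7g in 8 of 8 libraries, by a mean log2 difference of 1.54 ± 0.26 (SD, n = 8). Let-7d exceeded let-7i, and let-7b exceeded let-7e, in 8 of 8 libraries too. The order did not hold in every library for let-7g over let-7f (7 of 8) or let-7f over let-7c (6 of 8). The same was true of let-7i over let-7b (6 of 8, 1.41 ± 1.26, SD, n = 8). Let-7c and let-7d did not differ beyond their spread: the mean log2 difference was -0.62 ± 1.08 (SD, n = 8), since let-7c was the higher only in control replicates 3 and 4. Let-7e and mir-98 did not either, with 0.45 ± 0.92 (SD, n = 8) and let-7e the higher in 4 of 8 libraries.

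The make-up of the family differed most in control replicate 4, and for some members also in control replicate 3 or activated replicate 1. Let-7a made up 50.4%, 59.6%, 57.3% and 61.8% of family reads in the activated and 61.1%, 57.3%, 52.4% and 34.2% in the control libraries. Only control replicate 4 fell below 50.4%. Let-7c took 3.37%, 2.91%, 4.29% and 1.87% in the activated and 4.30%, 2.74%, 11.1% and 21.2% in the control libraries. Control replicates 3 and 4 were thus the highest for let-7c, as they were for let-7b at 1.83% and 2.06% and for let-7e at 0.464% and 1.54%. Let-7f took 17.96% in control replicate 4 and 13.0% in activated replicate 1, and between 6.71% and 9.69% in the other 6. Let-7d kept between 6.12% and 8.77% in all 8 libraries, control replicate 4 included at 7.26%.

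**Figure D2:**
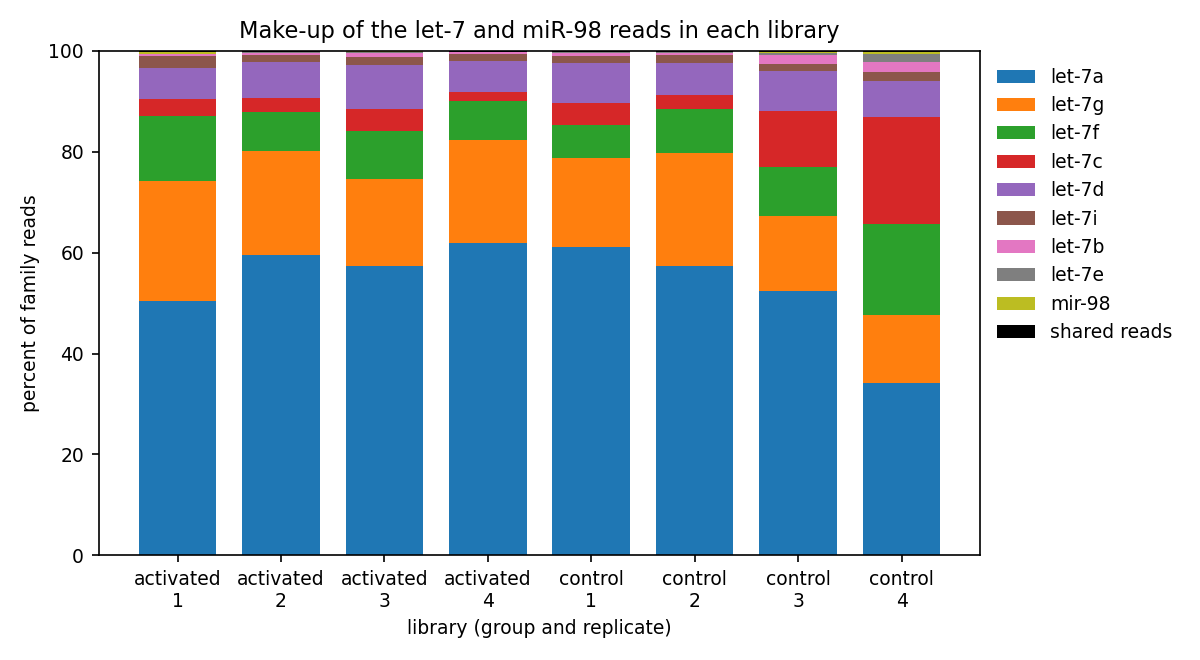
Percent of family reads taken by each member in each library, stacked to 100%. The let-7a share is 34.2% in control replicate 4 and 50.4% to 61.8% in the other 7 libraries, and the let-7c share is 21.2% in control replicate 4 and 11.1% in control replicate 3.

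The design's comparison is activated against control. All 9 members passed the filter of at least 50 reads in at least 4 libraries. By edgeR's quasi-likelihood test with Benjamini-Hochberg adjustment over 586 RNA species, 0 of 9 members were called at an adjusted p below 0.05 and an absolute log2 fold change above 1, and 0% of all species were called. At an unadjusted p below 0.05 there were 3 members, against 47 of 586 species (8.02%), and all 3 were lower, against 37 of 586 (6.31%). DESeq2 on the same counts also called 0 of 9 members, against 3 of 586 species (0.512%). It gave 1 member, let-7b, an unadjusted p below 0.05, against 67 species (11.4%). It gave no p for let-7c, let-7e, let-7f and mir-98, as it withholds p where it flags a count as extreme. Which library was flagged was not recorded, and their DESeq2 fold changes still used all 8 libraries.

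Those 3 members were let-7e, let-7c and let-7b. For let-7e the log2 fold change was -3.14 ± 1.20 (SE), with an adjusted p of 0.556 in edgeR's quasi-likelihood test with Benjamini-Hochberg adjustment. For let-7c it was -2.63 ± 1.02 (SE), and for let-7b -2.35 ± 0.93 (SE), each with the same adjusted p by that edgeR test with Benjamini-Hochberg adjustment. Without control replicate 4 these became -0.33 ± 0.43, -0.44 ± 0.40 and -0.63 ± 0.49. The other members were smaller: let-7a at -0.02 ± 0.35, let-7g at 0.01 ± 0.46, let-7i at -0.27 ± 0.60, let-7d at -0.46 ± 0.48, let-7f at -0.91 ± 0.77 and mir-98 at -1.09 ± 0.90. Without control replicate 4 all 6 were above 0, at 0.42 ± 0.24 for let-7a, 0.56 ± 0.34 for let-7g, 0.65 ± 0.37 for let-7i, 0.35 ± 0.19 for let-7d, 0.62 ± 0.34 for let-7f and 0.64 ± 0.51 for mir-98. In that fit 0 members had an unadjusted edgeR p below 0.05, against 59 of 573 species (10.3%). The reads shared by let-7a and let-7c gave -0.82 ± 0.66 with all libraries and 0.33 ± 0.36 without control replicate 4.

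Counting direction alone, 8 of 9 members had a log2 fold change below 0, with a median of -0.91, beside 319 of 586 species (54.4%) with a median of -0.07 and 107 of 273 miRNA features (39.2%) with a median of 0.15. Without control replicate 4, 3 of 9 members were below 0 and their median was 0.42, the same as the median over the miRNA features, 0.42, with 0.10 over all species. The 95% intervals were wide with all 8 libraries, from -0.82 to 0.78 for let-7a and from -5.85 to -0.42 for let-7e on the log2 scale.

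**Figure D3:**
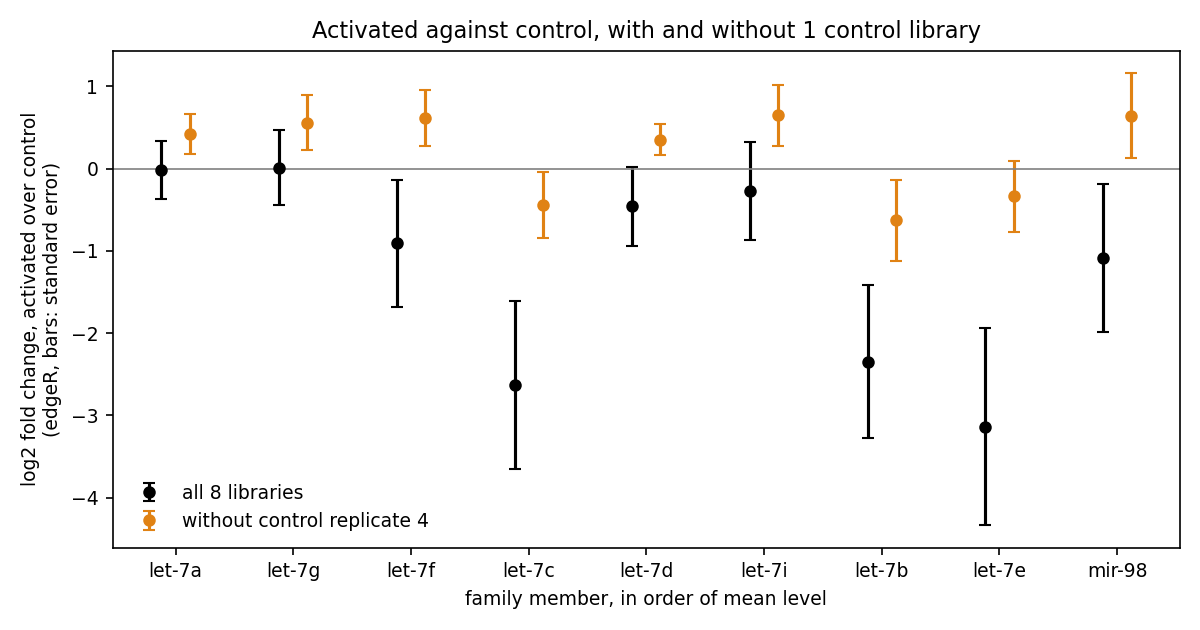
Log2 fold change of each member, activated over control, by edgeR, with bars of 1 standard error, for all 8 libraries (black) and without control replicate 4 (orange). Let-7e moves from -3.14 to -0.33, let-7c from -2.63 to -0.44 and let-7b from -2.35 to -0.63, while let-7a, g, f, d, i and mir-98 lie between 0.35 and 0.65 without that library.

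The rise in control replicate 4 was uneven over the family. Over the mean of the other controls it was 2.10-fold for let-7a, 2.50-fold for let-7g, 3.51-fold for let-7d, 3.99-fold for let-7i, 7.47-fold for let-7f, 8.94-fold for let-7b, 9.03-fold for mir-98, 13.4-fold for let-7c and 21.9-fold for let-7e. The median was 1.49-fold over 209 miRNA features, those with a mean of at least 10 RPM in the other 7 libraries and reads in every other control. Of these features 2 had a larger fold than let-7e, 10 a larger one than let-7c, and 71 a larger one than let-7a.

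The miRNAs transcribed beside let-7 genes, miR-99a, miR-99b, miR-100, miR-125a and miR-125b, are the other products of the chromosome 16, 17 and 9 clusters. They were chosen for their place in the genome. Together they read 1233, 940, 891 and 874 RPM in the activated and 1098, 932, 1773 and 15813 RPM in the control libraries. Control replicates 4 and 3 were the highest, as they were for let-7c and let-7e. The most abundant of them, miR-99a next to Mirlet7c-1, stood at 768, 570.2, 431 and 475 RPM in the activated and 592, 568, 951 and 9513 RPM in the control libraries. Its rise of 13.5-fold in control replicate 4 lay beside the 13.4-fold of let-7c. MiR-125a and miR-99b, the neighbours of let-7e, rose 16.0-fold and 9.52-fold there, against 21.9-fold for let-7e. MiR-100, beside Mirlet7a-2, rose 11.5-fold and let-7a 2.10-fold. By edgeR 0 of the 5 were called (0% of all species) and 4 had an unadjusted p below 0.05 (8.02% of all species). DESeq2 called 0 (0.512% of all), with 1 at an unadjusted p below 0.05 (11.4% of all) and no p for 4. All 5 log2 fold changes were below 0, with a median of -2.27, and without control replicate 4 the 5 were still below 0 with a median of -0.27.

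The marker lists gave the same kind of count. By edgeR 0 of 7 epithelial, 0 of 2 smooth muscle, 0 of 3 erythrocyte, 0 of 4 leukocyte and 0 of 5 sperm features tested were called, with 4, 2, 2, 0 and 0 at an unadjusted p below 0.05, beside 0% called and 8.02% at that p over all species. DESeq2 called 2 erythrocyte features and 0 in each of the other lists, beside 3 of 586 species (0.512%). In those other lists 2 epithelial, 0 smooth muscle, 1 leukocyte and 0 sperm features had an unadjusted p below 0.05 (11.4% of all species), and 5 epithelial and 2 smooth muscle features had no p. The median log2 fold change was -2.16 for epithelium, -5.54 for smooth muscle, -1.96 for erythrocytes, 0.28 for leukocytes and 0.23 for sperm. Without control replicate 4 these medians were -0.08, -0.19, -2.04, 0.65 and 0.29. The sums of the epithelial and of the smooth muscle markers were highest in control replicate 4, where all 9 members were highest in RPM too. The part of these markers' cells in the let-7 values was not tested.

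**Figure D4:**
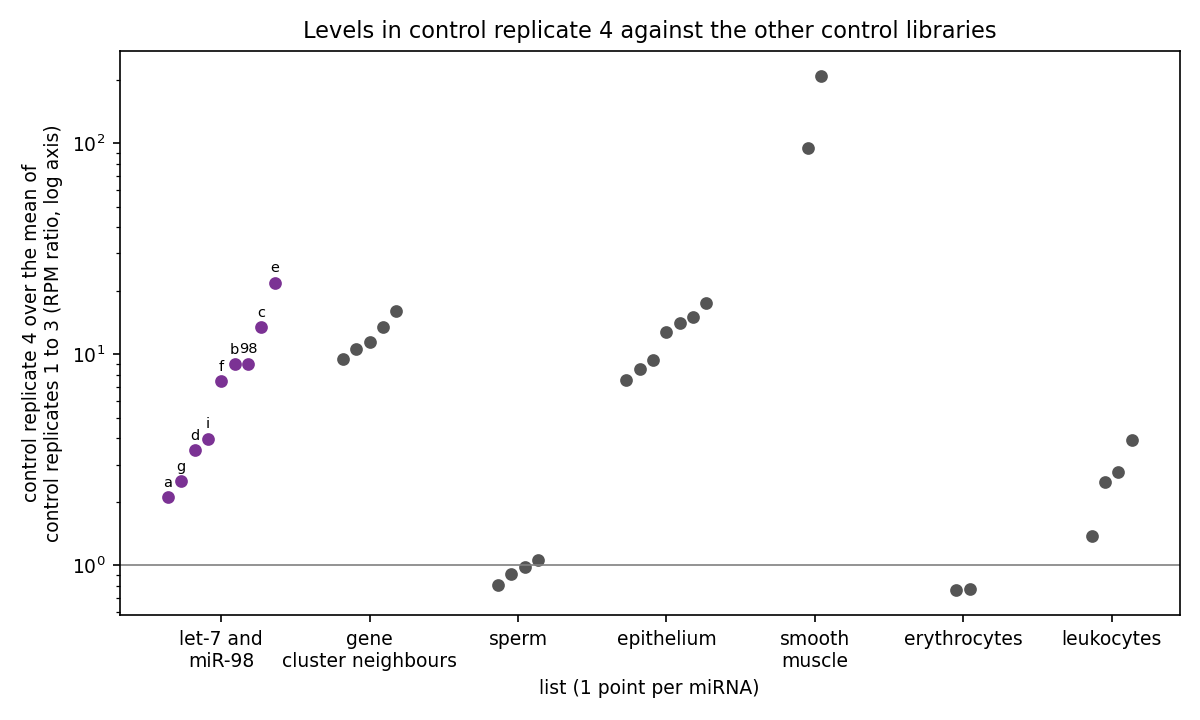
Level in control replicate 4 over the mean of control replicates 1 to 3, as a ratio of RPM on a log axis, with 1 point per miRNA that reached 10 RPM in a library other than control replicate 4, for the family (letters name the let-7 member, 98 stands for mir-98), the gene cluster neighbours and the marker lists. The family spans 2.10 to 21.9, its gene neighbours 9.52 to 16.0, and the miR-143 and miR-145a of smooth muscle reach 95.1 and 207.

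The single sequences behind the members were tested in the fit of all 12077 fragments, a fragment being 1 distinct sequence. Of the 383 family sequences 47 passed the filter, and these held 99.3% of family reads. The most abundant fragment of 9 of 9 members was the 22-nt mature sequence shown above. EdgeR called 0 of 47 family fragments, against 61 of 12077 (0.505%), and DESeq2 with apeglm-shrunken fold changes called 0, against 240 of 12077 (1.99%). At an unadjusted p below 0.05 edgeR gave 10 family fragments, all lower, against 497 lower of 12077 (4.12%), and DESeq2 gave 3, against 980 of 12077 (8.11%), with no p for 13. The 10 were 4 of let-7c, 3 of let-7b, 2 of let-7e and 1 shared by let-7a and let-7c. Without control replicate 4, 0 of the 43 family fragments tested had an unadjusted edgeR p below 0.05, against 677 of 11587 (5.84%).

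The lowest adjusted p among family fragments in edgeR's quasi-likelihood test with Benjamini-Hochberg adjustment belonged to a 21-nt let-7e read, the mature sequence less its last base. It stood at 7.65, 3.43, 5.15 and 3.19 RPM in the activated and 6.52, 3.11, 11.1 and 154 RPM in the control libraries. The last of these was far above the other 7, which overlapped between groups. Its log2 fold change was -3.51 ± 1.29 (SE), with an adjusted p of 0.606 in edgeR's quasi-likelihood test with Benjamini-Hochberg adjustment, and -0.38 ± 0.56 without control replicate 4. The next were the 21-nt let-7b read, at -2.53 ± 0.94 and -0.78 ± 0.56 without that library, and the 22-nt let-7e read, at -3.39 ± 1.29 and -0.31 ± 0.57.

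Nearly all family reads came from the 5p arm, the strand printed above. Of 1945173 family reads 1940915 (99.8%) were 5p and 3966 (0.204%) were 3p, and each of the 383 sequences matched the genome and a RefSeq hairpin. Most 3p reads, 3088 (77.9%), were of let-7d, whose 3p strand is shown because no other member gave a comparable number.
mmu-let-7d-3p: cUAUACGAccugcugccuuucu
Its capitals again mark bases 2 to 8. The 3p strand took 1.70%, 2.44%, 2.85% and 2.32% of let-7d reads in the activated and 4.06%, 2.50%, 3.86% and 1.45% in the control libraries. Control replicates 1 and 3 were the highest and control replicate 4 the lowest, so the groups overlapped.

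The 5′ end was close to fixed. The lowest share of 5p reads that began at the annotated first base, over all members and libraries, was 98.5% (let-7d in activated replicate 3), so the seed printed above was the seed of nearly all reads. For let-7d this share was 98.7 ± 0.181% in activated and 99.1 ± 0.199% in control mice (SD, n = 4 each), and the highest activated value, 98.86%, lay just below the lowest control value, 98.87%. Of the 99 arm, length and first-base measures computed it was the only 1 whose groups did not overlap, and it was not tested. The 3′ end varied by member. The 22-nt form took 54.0%, 55.8%, 57.9% and 54.7% of let-7a 5p reads in the activated and 56.0%, 55.0%, 56.5% and 61.2% in the control libraries, with control replicate 4 the highest. For let-7d it took 39.2%, 35.6%, 42.8% and 34.8% in the activated and 36.1%, 36.3%, 47.0% and 56.4% in the control libraries. Control replicate 4 stood above every other library here too, and 21-nt reads made up 31.3 ± 3.41% of let-7d over all 8 (SD, n = 8). Let-7b was the longest, with 32.3 ± 3.37% of its reads at 23 nt, against 0.513 ± 0.259% for let-7i (SD, n = 8 each), while mir-98 had such reads in activated replicate 4 alone.

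Reads with bases at the 3′ end that the hairpin does not encode were looked for outside the family's annotation, since the matching allowed 0 mismatches. A tail was 1 to 3 such bases after at least 20 templated ones, so a changed last base counts as a tail as well. There were 166173 such reads of 621 sequences. None matched the genome, and 165545 of them were filed as piRNA and 628 under no annotation. They made up 6.76%, 6.79%, 8.11% and 6.58% of family plus tailed reads in the activated and 7.43%, 6.55%, 7.60% and 9.98% in the control libraries. Highest was control replicate 4, activated replicate 3 next, and the groups overlapped.

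Tailing differed between members. Where the hairpin continues with U, a single added U cannot be told from template, and this holds for let-7a, b, c, d and g and for one of the let-7f genes. Let-7e, let-7i and mir-98 have G next. Of these let-7i carried the most U, in 24.8%, 29.4%, 27.6% and 28.4% of its 5p reads in the activated and 30.0%, 27.6%, 24.4% and 18.8% in the control libraries, tailed reads included. Control replicate 4 was the lowest, and the other 7 overlapped. In mir-98 the share was 9.79 ± 5.45% (SD, n = 8). In let-7e it was 13.8%, 14.9%, 16.4% and 17.7% in the activated and 13.4%, 10.2%, 10.98% and 11.4% in the control libraries, with means of 15.7 ± 1.69% and 11.5 ± 1.35% (SD, n = 4 each). All 4 activated values lay above all 4 control values. Of the 27 tail shares computed (A, U or other in 9 members) this was the only 1 in which the groups did not overlap. The margin was small, 13.8% in activated replicate 1 (Wilson 95% interval 11.4% to 16.6%) against 13.4% in control replicate 1 (10.2% to 17.3%), and the difference was not tested. The full-length let-7i sequence with 1 added U is shown because it held most of these reads, with the added base in capitals.
mmu-let-7i with U: ugagguaguaguuugugcuguuU
It had 2659, 1379, 1037 and 911 reads in activated and 776, 2373, 436 and 2820 reads in control replicates 1 to 4, 12391 in all. With a second U the same sequence had 745 reads.

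Added A was found in all 9 members. It ended 10.5 ± 3.07% of let-7i reads and 18.5 ± 3.43% of let-7b reads, against 4.59 ± 0.390% of let-7a and 4.53 ± 0.494% of let-7f reads (SD, n = 8 each). Control replicate 4 was the highest for let-7b, at 25.6%, for let-7i, at 17.6%, and for let-7c, at 10.1%. Over the other 7 libraries the highest values were 20.4%, 11.2% and 8.08%. For let-7a the A share was 4.24%, 4.46%, 5.19% and 4.34% in the activated and 4.84%, 4.18%, 4.42% and 5.08% in the control libraries, which overlapped.

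**Figure D5:**
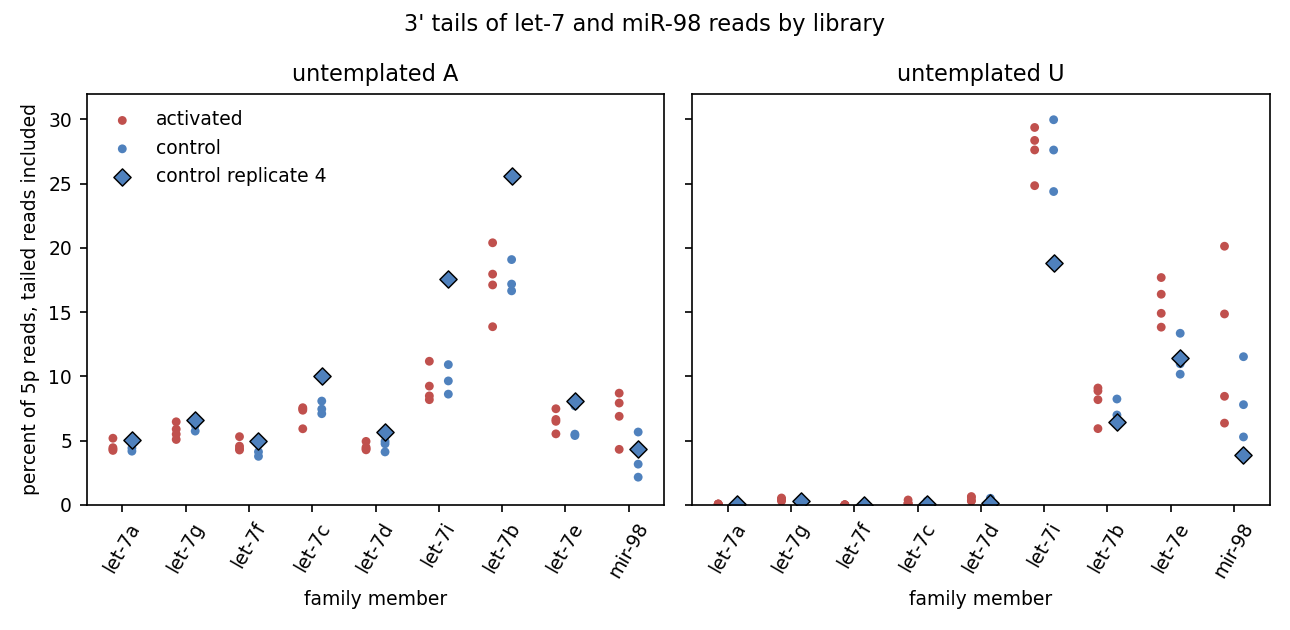
Percent of 5p reads of each member that end in an untemplated A (left) or U (right), tailed reads included, with 1 point per library. For let-7i the U share is 18.8% in control replicate 4 and 24.4% to 30.0% in the other 7 libraries, and the A share is 17.6% and 8.19% to 11.2%.

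For let-7a, the leading member, 4 measures that played no part in choosing the family were tested between groups, each by a two-sided exact permutation test over the 70 assignments of 4 against 4 libraries, whose smallest possible p is 0.0286. The mean length of its 5p reads was 21.7 ± 0.0462 nt in activated and 21.7 ± 0.0230 nt in control mice (SD, n = 4; exact permutation p = 0.943). The share beginning at the annotated first base was 99.7 ± 0.0599% and 99.7 ± 0.0635% (SD, n = 4; exact permutation p = 0.486). The share ending in an untemplated U was 0.0673 ± 0.0122% and 0.0703 ± 0.0233% (SD, n = 4; exact permutation p = 0.829). Since the let-7a hairpin continues with U, this measure misses a single U added to the mature end, and so says nothing of that form of tail. The 3p share could not be judged: only 9 reads of the 3p arm were let-7a alone, in activated replicate 1 and control replicate 4, because 474 more also fit let-7c and are counted as shared. With Benjamini-Hochberg adjustment over the 4 tests every p was 1.

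Likeness of pattern was measured as the root mean square difference of mean-centred log2 RPM over the 8 libraries, in which 0 would be an identical profile. Within the family the closest pairs were let-7a with let-7g (0.24), let-7b with let-7c (0.24), let-7c with let-7e (0.26) and let-7g with let-7i (0.28). The farthest were let-7e with let-7g and with let-7a, at 1.51 each. Over the other 7 libraries, leaving out control replicate 4, these 2 pairs stood at 0.95 and 0.84, and the farthest was let-7b with let-7g (1.11). The 4 close pairs then stood at 0.24, 0.21, 0.15 and 0.20, beside let-7f with let-7i (0.15). Let-7b lies beside 1 of the 2 let-7c genes, while no let-7a gene lies near Mirlet7g. Outside the family, 113 miRNA features with a mean of at least 100 RPM were compared with the family sum, with a median of 0.58. The 5 most like it were miR-31 (0.14), miR-30a (0.16), miR-183 (0.17), miR-29a (0.17) and miR-26a (0.18). MiR-31 stood at 277, 185, 135 and 228 RPM in the activated and 142, 200, 115 and 675 RPM in the control libraries, with control replicate 4 the highest as in the family. Over the 7 libraries without control replicate 4 these features ranked 2, 5, 12, 6 and 15.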

How the data were processed

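Sperm small RNA of 8 mice was analysed, 4 activated and 4 control, 1 library each, from the tables of read counts per distinct sequence. The authors made the counts with SPORTS1.1, keeping reads of 15 to 45 nt with duplicates left in, and matching without mismatches; Bowtie and mm10 are named in the submitters' processing notes. Depth was 9297271 to 23123740 reads. RPM was computed over all reads of a library. Counts were joined by annotation, with copy suffixes dropped, and tested with edgeR 4.0.16 (TMM factors, quasi-likelihood test, at least 50 counts in at least 4 libraries) and DESeq2 1.42.0 with apeglm 1.24.0 in R 4.3.3. Values by library came from pandas 2.3.3, scipy 1.17.1 and numpy 2.4.6 under Python 3.11.15, and were drawn with matplotlib 3.10.9. Reads without annotation (9.53% to 23.7%) and piRNA reads (9.77% to 17.3%) were left out of the species fit and its library sizes. The fits were tested on simulated data with known answers.

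All 9 members, the reads they share and the listed miRNAs were named whatever their values. Beyond these, the text names the most abundant fragment of each member, the 3 family fragments of smallest p and the 5 outside miRNAs most like the family sum. The members and lists were chosen with earlier results of these data known. Tailed reads, the added U of let-7i, the 3p strand of let-7d, the fold in control replicate 4 and the levels and likeness of members without it were chosen after their values were seen. Alternatives covered the test, scaling, count minimum, reads used, shared reads, covariates, denominators and leaving out each library. Sequences and genes came from RefSeq GRCm38.p6 and GENCODE vM21. Wilson 95% intervals of tail shares, kept with the tables, cover counting error only and not the spread between mice, and 1 read is 0.0432 to 0.108 RPM. Target mRNAs and the paper's other experiments were not analysed here.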

Additional observations from a re-analysis of the deposited data

Results flagged for a closer look

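In 76 groups of 4 libraries, a library was set apart where its gap to the nearest library of its group, over the range of the group, passed the limit of Dixon's test, which chance alone would pass in about 1 in 20 groups. There were 18 such values, 12 of them in control replicate 4. There the gap took 0.838 of the range for the family sum (39892 RPM) and for its percent of all reads (3.99%). These are the same quantity in different units, so the counts above include it more than once. It took 0.832 for let-7b (823 RPM), 0.918 for let-7c (8466 RPM), 0.930 for let-7d (2896 RPM), 0.954 for let-7e (613 RPM), 0.908 for let-7f (7165 RPM), 0.928 for mir-98 (153 RPM) and 0.937 for the reads shared by let-7a and let-7c (116 RPM). In the same library it took 0.943 for the gene cluster neighbours (15813 RPM), 0.924 for the epithelial list (19420.2 RPM) and 0.995 for the smooth muscle list (35290.0 RPM). Activated replicate 1 stood above its group in let-7f (2708 RPM, 0.830), the epithelial list (3476 RPM, 0.954) and the erythrocyte list (298 RPM, 0.863). Activated replicate 3 stood apart in its genome-matched reads (63.4%, 0.847) and in tailed reads (8.11%, 0.868), and activated replicate 4 in let-7c reads with an added A (5.93%, 0.880). The causes were not tested.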

How the results depend on the processing

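Over 9 members and 19 alternatives each, 152 of 171 log2 fold changes kept their direction and 19 turned, 10 of them on leaving out 1 library. None was called, and the lowest adjusted p was 0.207 (let-7b, DESeq2 with Benjamini-Hochberg adjustment). Let-7a, at -0.02, turned to 0.00614 with DESeq2, 0.00615 with median-ratio factors, 0.106 with library size alone, 0.00361 at a minimum of 10 counts, 0.0403 at 1 count and 0.0732 with the library set as a term, and let-7i turned to 0.00113 with that term. On leaving out 1 library the ranges were -0.18 to 0.42 for let-7a, -0.66 to 0.35 for let-7d, -1.24 to 0.62 for let-7f, -0.19 to 0.56 for let-7g, -0.58 to 0.65 for let-7i, -1.60 to 0.64 for mir-98 and -1.11 to 0.33 for reads shared by let-7a and let-7c. Let-7b, let-7c and let-7e stayed below 0 throughout.

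The family ratio ranged from 0.689 to 1.30 on leaving out 1 library. It was 1.13 within the libraries high in mitochondrial rRNA and 1.02 over miRNA reads without control replicate 4. Species called went from 0 to 3 with DESeq2. Fragments called went from 61 to 240 with DESeq2 and apeglm, 202 at a minimum of 10 counts, 0 with genome-matched reads alone and 0 to 58 on leaving out 1 library. For let-7a the group differences ranged over -0.000638 to 0.000636 points (3p share), -0.0168 to 0.0202 nt (length), -0.0592 to -0.000961 points (first base) and -0.0136 to 0.00356 points (untemplated U). That last measure has no value at 20 to 24 nt. Apart from the library left out, the cause was not tested. The tailed reads, the library sets taken separately and the miRNA denominator without control replicate 4 were chosen after seeing the data.

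The labels number the mice of both groups alike. Of 4 same-number pairs 1 correlated above 0.1 (r from -0.507 to 0.525), and 1 activated library matched its own number best. So few pairs cannot settle whether the numbers pair the mice. With the replicate block, species called stayed at 0, fragments called went to 0, let-7a became 0.115 and let-7i 0.0860, and let-7e, let-7c and let-7b shrank to -0.999, -1.05 and -1.07. With the library set as a term these 3 were -2.31, -2.07 and -2.02. Under either term 0 of 9 members kept an unadjusted edgeR p below 0.05, against 3 without. Over all species the count at that p was 47 of 586 without either term. It fell to 29 of 586 with the replicate block and rose to 64 of 586 with the library set as a term.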
